A study of Mus musculus with 25 samples.

Results

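The genes of prostaglandin synthesis, breakdown and reception were followed through the 7 groups of the series. The 10 genes were chosen by symbol from the 24984 genes of the count table. They are Pla2g4a, Ptgs1, Ptgs2, Ptgs2os2, Ptges, Ptges2, Ptgis, Hpgd, Ptger2 and Ptger4, and all 10 were found in the table. RNA was sequenced from 9 libraries of cultured BMEL cells and from 16 libraries of cells sorted out of tumours that grew in the liver and in the peritoneum of 4 mice. BMEL cells are bipotential mouse embryonic liver cells, a line of hepatic progenitors from a C57B/6_C3H mouse, and were derived clonally. The series asks how the dose of oncogenic Ras and the site of growth shape the tumour.

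The 3 cultured groups had 3 libraries each. BMEL WT carried an empty vector. RasLOW and RasHIGH cells carried a human H-RasG12V cDNA joined to a fluorescent protein in a bicistronic viral vector, and had been sorted for weak or strong fluorescence, with Ras levels that overlap between the populations. All cultured cells grew exponentially on collagen in medium with serum, insulin, IGFII and EGF. The 4 sorted groups had 4 libraries each, 1 per mouse. Tumour cells and stromal cells were separated by the fluorescence of the transgene after dissociation of 2 tumours per athymic nude mouse, 1 at each site. These hosts lack a thymus and so mature T cells, but keep myeloid and NK cells. The labels do not say whether the tumours came from RasLOW or RasHIGH cells, and no age or sex is used here. The stroma is a mixture of every fluorescence-negative cell of the tumour, so fewer cells of a type and less RNA per cell cannot be told apart.

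Prostaglandins are lipid signals made on demand. A phospholipase frees arachidonic acid from membranes, a cyclooxygenase (COX) turns it into PGH2, and terminal synthases convert PGH2 into PGE2, prostacyclin and other products, which act on G protein-coupled receptors of neighbouring cells until they are oxidised. In tumours, PGE2 is known for dampening NK and dendritic cells and for acting on macrophages, fibroblasts and vessels, and in the liver the pathway is active in Kupffer, stellate and endothelial cells.

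Total counts ran from 20818989 to 51241336 per library, so that 3 counts, taken as the detection floor, corresponded to 0.0585 to 0.144 CPM. CPM is the count scaled to a library total of 1000000, and all levels below are in this unit. The sorted tumour cells carried the markers of their label, with a summed level of 8 hepatic progenitor genes of 8168 to 11505 CPM against 647 to 1522 CPM in the stroma. The 5 leukocyte genes summed to 26.9 to 86.9 CPM in tumour cells and to 2017 to 3799 CPM in stroma. The hepatocyte genes of the list summed to 113 to 175 CPM in liver tumour cells and 252 to 433 CPM in peritoneal tumour cells. A pair of libraries stood apart from their groups. The peritoneal tumour cells of mouse 1 held 1491 CPM of the 8 fibroblast and stellate genes against 217 to 331 CPM in the other 3 mice, and the peritoneal stroma of mouse 1 held 4327 CPM of the 8 neutrophil genes against 512 to 539 CPM. Peritoneal tumour cell results that moved by over 1.5 times or lost a call without mouse 1 are given with and without it. The mouse Hras gene stood at 87.4 ± 7.17 CPM in BMEL WT and 70.7 ± 15.8 CPM in RasHIGH cells (SD, n = 3), but the transgene is a human cDNA, so this count does not check the labels.

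The cyclooxygenases Ptgs1 and Ptgs2 share a step of the pathway, as do the PGE2 synthases Ptges and Ptges2. The synthases differed in their patterns below. Both cyclooxygenases were highest in stroma and lower in tumour cells than in RasHIGH cells, and no test compared them with each other. The 250 bases before the RefSeq start sites of both pairs (GRCm38.p6) are shown 5′ to 3′ on the gene's strand. Matches to 8 searched motifs are in capitals.
Ptgs1 (chr2:36230176-36230425, plus strand): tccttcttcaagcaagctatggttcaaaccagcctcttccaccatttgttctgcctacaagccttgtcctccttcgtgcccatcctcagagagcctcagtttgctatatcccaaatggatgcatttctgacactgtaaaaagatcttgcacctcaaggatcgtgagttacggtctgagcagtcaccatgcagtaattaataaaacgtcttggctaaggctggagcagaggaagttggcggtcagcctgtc
Ptgs2 (chr1:150099781-150100030, plus strand): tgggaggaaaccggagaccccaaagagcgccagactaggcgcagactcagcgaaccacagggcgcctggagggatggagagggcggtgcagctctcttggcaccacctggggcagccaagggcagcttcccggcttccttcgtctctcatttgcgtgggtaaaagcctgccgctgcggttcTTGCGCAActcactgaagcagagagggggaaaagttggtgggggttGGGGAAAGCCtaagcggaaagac
Ptges (chr2:30903298-30903547, minus strand): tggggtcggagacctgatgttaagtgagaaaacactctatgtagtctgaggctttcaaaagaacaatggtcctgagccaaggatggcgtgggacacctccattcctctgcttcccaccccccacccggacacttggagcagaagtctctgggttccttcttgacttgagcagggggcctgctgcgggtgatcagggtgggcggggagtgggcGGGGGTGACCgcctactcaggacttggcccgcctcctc
Ptges2 (chr2:32395640-32395889, plus strand): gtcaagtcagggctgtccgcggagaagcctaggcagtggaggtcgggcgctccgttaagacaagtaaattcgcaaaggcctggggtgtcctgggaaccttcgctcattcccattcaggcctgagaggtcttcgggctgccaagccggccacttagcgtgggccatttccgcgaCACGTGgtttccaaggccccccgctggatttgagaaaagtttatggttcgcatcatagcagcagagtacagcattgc
The motifs searched on both strands were CRE (TGACGTCA), its core (TGACG), AP-1 (TGANTCA), NF-kB (GGG, any 5 bases, CC), E-box (CACGTG), C/EBP (TTGCNNAA), Ets core (CCGGAAG) and the TATA box (TATAAA). The Ptgs2 window held a C/EBP match, TTGCGCAA, 69 to 62 bases before the start, and an NF-kB match, GGGGAAAGCC, 23 to 14 bases before it. The Ptges window held an NF-kB match, GGGGGTGACC, 38 to 29 bases before the start, and the Ptges2 window an E-box 77 to 72 bases before it. The Ptgs1 window held none of the 8. Of all 32851 promoters in the table, 9.56% held the C/EBP letters, 45.8% the loose NF-kB letters and 6.02% the E-box, so the NF-kB letters are found in many windows of this length. In the 50 bases after the start, Ptgs2 had an E-box at bases 17 to 22 that overlapped a CRE core at bases 14 to 18. Matches are letters in a window set by the RefSeq start. Neither binding nor the start used in these cells was measured.

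**Figure D1:**
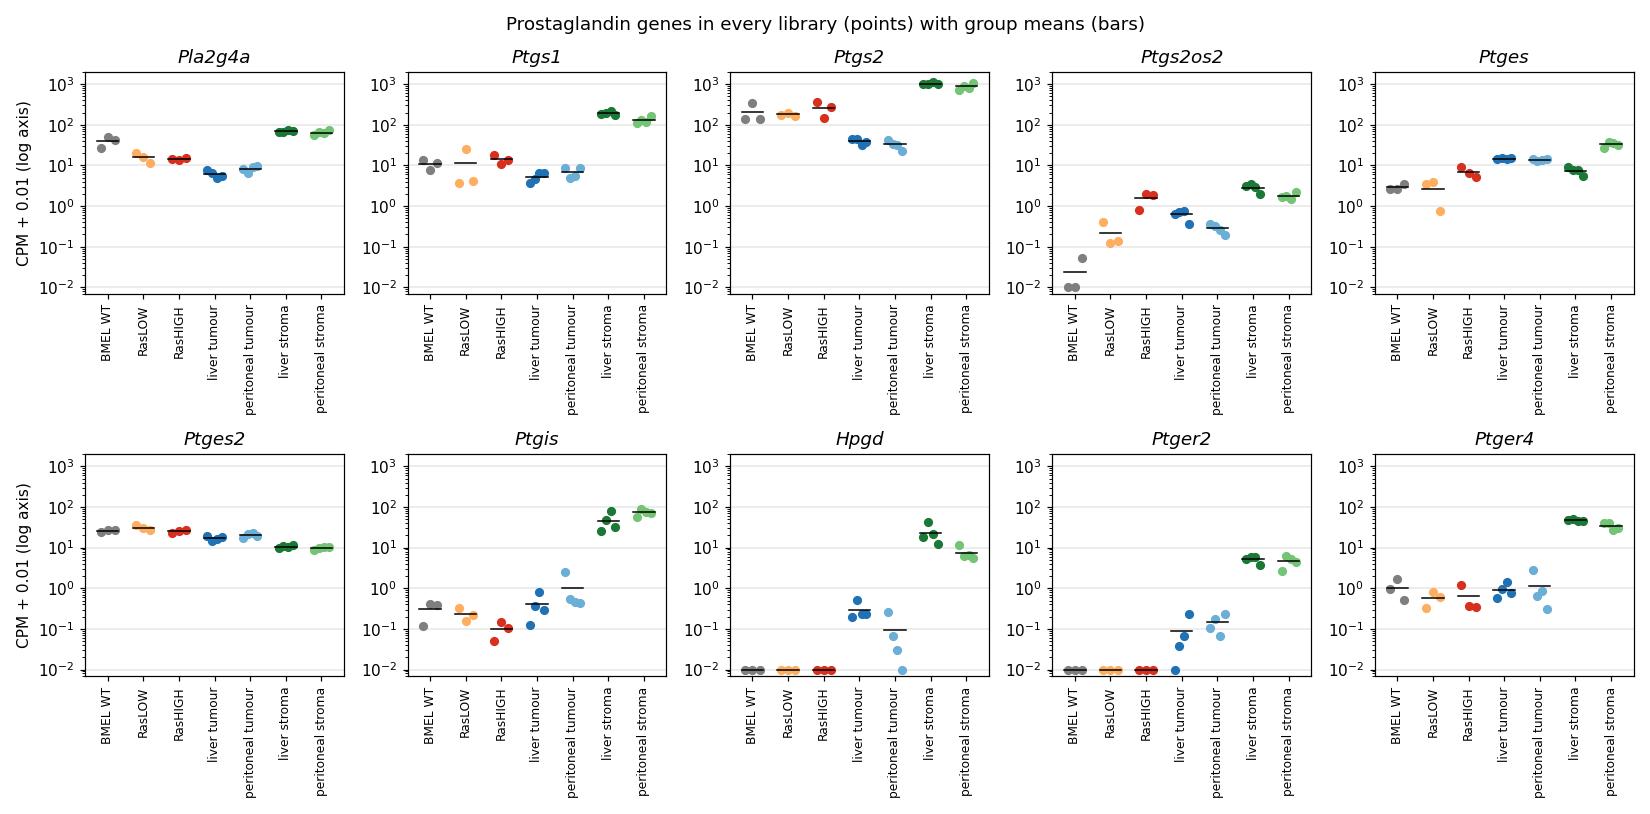
Level of each of the 10 prostaglandin genes in all 25 libraries. Each point is a library, bars are group means, and the vertical axis is CPM plus 0.01 on a log scale. Of the 10 genes 8 sit highest in the 2 stroma groups, Ptges2 sits lowest there, and Ptges is highest in the peritoneal stroma and in the tumour cells.

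Most of the pathway lay in the stroma. In the liver, all 10 genes differed between stroma and tumour cells, 8 of them higher in stroma (Benjamini-Hochberg adjusted p under 0.05, edgeR quasi-likelihood test). That count stands against a background of 77.8% of the 14620 genes tested, with 39.4% higher in stroma and 38.4% lower. The median log2 difference of the 10 genes was 5.04, and that of all genes 0.00. In the peritoneum all 10 differed again, 9 of them higher in stroma, against 76.6% of 14584 genes, of which 37.1% were higher and 39.5% lower. The median there was 4.60 for the 10 genes and -0.07 for all genes. With more than 3 in 4 genes called at both sites, being called is no feature of these genes, and the sizes below carry the description.

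Fewer genes moved with Ras dose or site. Between RasHIGH and BMEL WT cells 3 of the 7 genes tested changed, against 22.6% of 12331 genes (10.9% higher and 11.7% lower). Between RasLOW and BMEL WT 1 of 6 changed, downwards, against 5.96% of 12307 genes, of which 1.92% were higher and 4.05% lower. With the replicate number as a block, 0 of the 6 were called there, against 2.32%. The labels do not say that these numbers pair cultured libraries. Between RasHIGH and RasLOW cells edgeR called 0 of 7 (2 at an unadjusted p under 0.05, 1 by DESeq2), against 0.0752% of 11962 genes (0.0585% higher and 0.0167% lower) by edgeR and 3.03% by DESeq2. Of those 11962 genes, 1170 had an unadjusted edgeR p under 0.05. Between liver and peritoneal stroma 3 of 10 changed, 2 higher and 1 lower in the liver, against 33.4% of 14755 genes (14.9% higher and 18.5% lower). Between the tumour cells of the same 2 sites edgeR called 0 of 8 (2 at an unadjusted p under 0.05, 0 by DESeq2), against 3.20% of 13074 genes (1.33% higher and 1.87% lower) by edgeR and 8.32% by DESeq2. Of those 13074 genes, 2641 had an unadjusted edgeR p under 0.05. Compared with cultured RasHIGH cells, 6 of 7 genes changed in liver tumour cells and 6 of 8 in peritoneal tumour cells, against 45.1% of 12971 genes (23.0% higher, 22.1% lower) and 37.9% of 12791 genes (19.3% higher, 18.6% lower). The genes not tested in a comparison were those with too few counts in both groups.

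**Figure D2:**
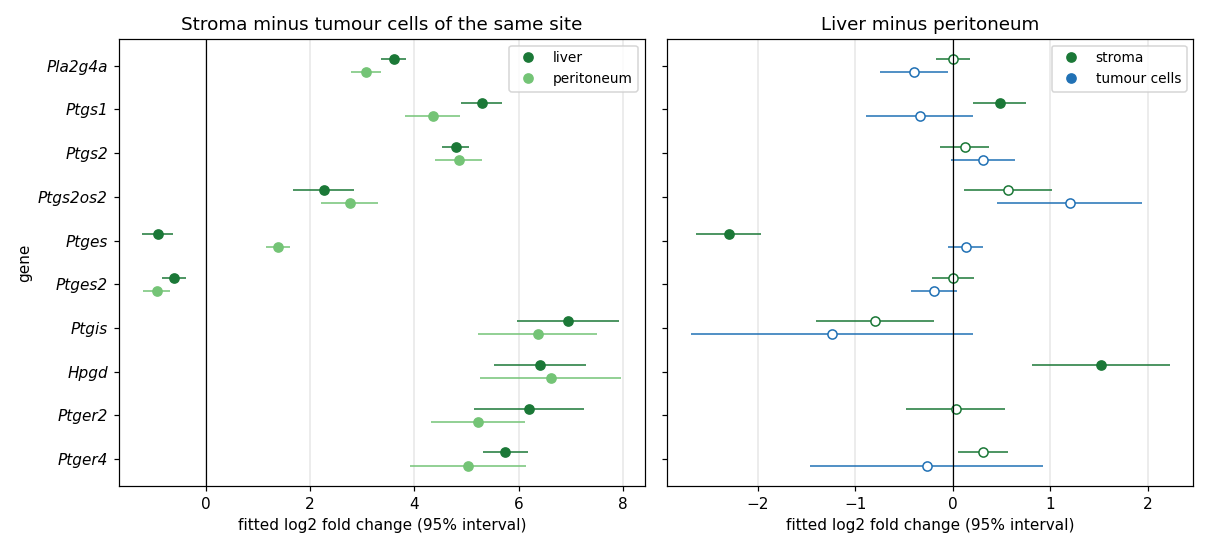
Fitted log2 differences of the prostaglandin genes between stroma and tumour cells (left) and between liver and peritoneum (right). Points are estimates, lines 95% intervals, filled points passed an adjusted p of 0.05 and open points did not. On the left Ptges changes side between liver (-0.92) and peritoneum (1.38), and on the right Ptges in stroma (-2.30) lies farthest from 0.

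Pla2g4a, the cytosolic phospholipase that frees arachidonic acid (Entrez 18783, mm9 chr1:151676748-151808420), fell with Ras in culture. Its level was 26.1, 50.9 and 43.0 CPM in the 3 BMEL WT libraries, 20.1, 16.5 and 11.5 CPM in RasLOW and 13.9, 13.7 and 15.3 CPM in RasHIGH. All Ras libraries lay below all BMEL WT libraries. The log2 difference from BMEL WT was -1.46 (SE 0.24, edgeR adjusted p = 0.00646) in RasHIGH and -1.29 (SE 0.30, adjusted p = 0.0497) in RasLOW cells, the latter close to the threshold and lost in turn without each of 5 of the 6 libraries (adjusted p = 0.0590 to 0.184). RasHIGH and RasLOW cells differed by -0.16 (SE 0.26, 95% interval -0.66 to 0.34). Of the cultured libraries 2 of BMEL WT were run in lane 3 and all others in lane 4. Within lane 4, with 1 BMEL WT library left whose spread had to be taken from the other groups, the differences were -1.53 (adjusted p = 0.0552) and -1.36 (adjusted p = 0.523).

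The tumour cells had still less Pla2g4a. They held 7.54, 6.31, 4.77 and 5.60 CPM in the liver and 8.25, 6.36, 9.06 and 9.40 CPM in the peritoneum for mice 1 to 4. These ranges overlapped each other and lay below those of all cultured groups. The difference from RasHIGH cells was -1.15 (SE 0.17, adjusted p = 0.000987) in the liver and -0.74 (SE 0.18, adjusted p = 0.0141) in the peritoneum. In stroma the gene stood at 69.7 ± 3.23 CPM in the liver and 64.3 ± 6.31 CPM in the peritoneum (SD, n = 4), 12.1-fold and 8.39-fold above the tumour cells of the same site in the fit. The stroma of the 2 sites differed by 0.00 on the log2 scale (SE 0.09).

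Ptgs2, the inducible cyclooxygenase COX-2 (Entrez 19225, mm9 chr1:151947254-151955140), was the most abundant per kilobase of exon among the 9 genes with an annotated length, in every group except the tumour cells of the peritoneum, where Ptges2 stood higher. It reached 248 ± 15.1 CPM per kb in liver stroma and 212 ± 36.3 CPM per kb in peritoneal stroma (SD, n = 4). In cultured cells it varied between libraries more than between groups, with 142, 335 and 142 CPM in BMEL WT, 177, 199 and 161 CPM in RasLOW and 367, 149.8 and 277 CPM in RasHIGH. The 3 groups overlapped. The log2 difference between RasHIGH and BMEL WT was 0.37 (SE 0.43, 95% interval -0.47 to 1.20). No change was called with 3 libraries, and the interval held both signs.

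In tumours the lineage had far less Ptgs2. Liver tumour cells held 43.5, 45.3, 31.2 and 37.5 CPM and peritoneal tumour cells 41.9, 33.9, 32.4 and 23.0 CPM in mice 1 to 4. All 8 lay below all 9 cultured libraries. Against RasHIGH cells Ptgs2 was 6.28-fold lower in liver tumour cells (log2 difference -2.65, SE 0.27, adjusted p = 0.000126) and 7.76-fold lower in peritoneal tumour cells (-2.96, SE 0.31, adjusted p = 0.000513). Culture, dissociation, sorting and sequencing lane all differed between these groups and cannot be told apart, and the 11 dissociation-response genes (Fos, Jun, Hspa1a and others) summed to 484 to 2215 CPM in culture and 3954 to 6739 CPM in tumour cells. Their part in the difference was not tested.

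In stroma Ptgs2 was high. Its level was 1000, 989, 1123 and 1007 CPM in the liver and 736, 895, 798 and 1080 CPM in the peritoneum of mice 1 to 4. Each stroma library exceeded each tumour cell and each cultured library. Ptgs2 was 27.6-fold higher in stroma than in tumour cells of the liver (log2 difference 4.79, SE 0.13, adjusted p = 1.82e-11) and 28.9-fold higher in the peritoneum (4.85, SE 0.23, adjusted p = 8.81e-07). The stroma of the 2 sites overlapped, with a difference of 0.12 (SE 0.13). The dissociation-response genes summed to 6966 to 13292 CPM in stroma, above the 3954 to 6739 CPM of the tumour cells, and their part was not tested.

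Each gene was also expressed as a percentage of its stroma level in the same mouse and site. Ptgs2 in tumour cells was 2.78 to 4.58% of its stroma level in the liver and 2.13 to 5.70% in the peritoneum, and Ptgs1 was 1.94 to 3.66% and 3.69 to 8.16%. The same percentage over all 28 leukocyte, macrophage, endothelial and fibroblast marker genes had a median of 0.816% in the liver and 0.603% in the peritoneum, but ran up to 65.5% and 113%. The median for Ptgs2 lay above those of 23 of the 28 markers at both sites, and that for Ptgis above 14 of 28 at both. Ptprc, a leukocyte gene, was at 0.197 to 0.281% in the liver and 0.203 to 2.27% in the peritoneum, where the highest value was that of mouse 1. How much stromal RNA the tumour cell libraries held was not tested.

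**Figure D3:**
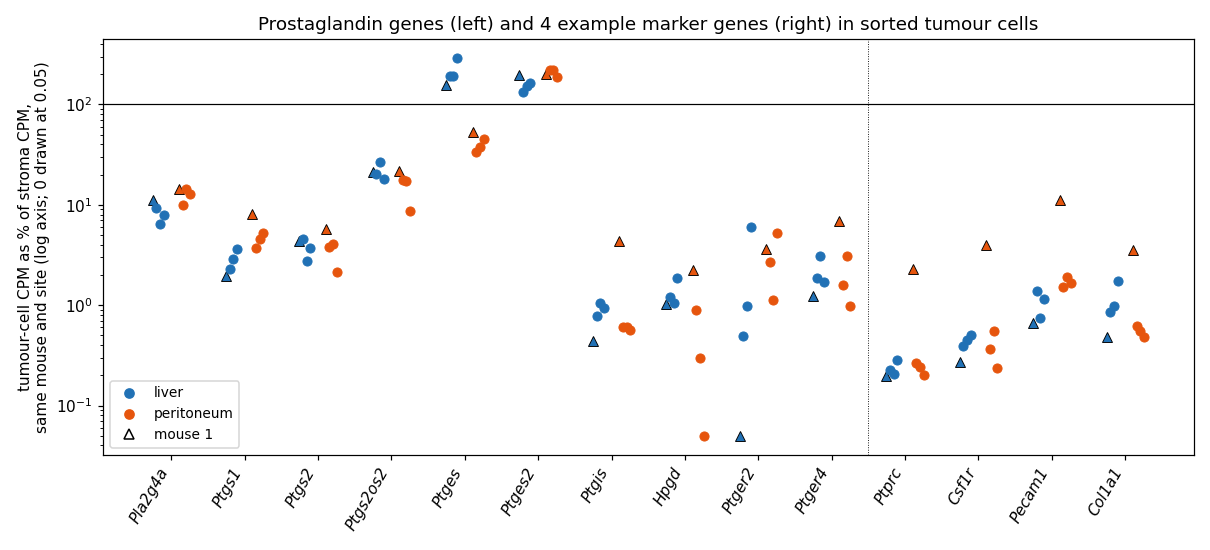
Level in sorted tumour cells as a percentage of the level in the stroma of the same mouse and site, on a log axis, for the 10 prostaglandin genes (left of the dotted line) and 4 of the 28 marker genes as low-lying examples (right). Each point is a mouse, triangles mark mouse 1, values of 0 are drawn at 0.05%, and the line at 100% marks equal levels. Ptges2 at both sites and Ptges in the liver lie above 100%, and the peritoneal markers of mouse 1 lie above those of the other mice.

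Ptgs1, the constitutive cyclooxygenase COX-1 (Entrez 19224, mm9 chr2:36085946-36107792), was also highest in stroma, at lower levels. BMEL WT held 13.4, 7.78 and 11.3 CPM, RasLOW 3.65, 25.9 and 4.12 CPM and RasHIGH 18.5, 10.9 and 13.4 CPM. RasLOW replicate 2 lay above all other cultured libraries and the other RasLOW replicates below them. The difference between RasLOW and BMEL WT was 0.03 (SE 0.71) with that library and -1.44 (SE 0.29, adjusted p = 0.0193) without it, so its direction turned on 1 library. The same library held 1809 CPM of the dissociation-response genes, against 674 and 710 CPM in the other RasLOW replicates. RasHIGH replicate 1, the highest RasHIGH library for Ptgs1, held 2215 CPM of them, against 484 and 874 CPM in its partners. The part of a state or batch shared by such libraries was not tested.

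In tumour cells Ptgs1 stood at 3.66 to 6.54 CPM in the liver and 4.75 to 8.83 CPM in the peritoneum. It was lower than in RasHIGH cells by 1.33 on the log2 scale in the liver (log2 difference -1.33, SE 0.27, adjusted p = 0.00421) and by less in the peritoneum (-0.99, SE 0.29, adjusted p = 0.0301). Leaving out RasHIGH replicate 1 or 3 or peritoneal tumour replicate 2 or 3 took the latter past the threshold, to adjusted p values of 0.0602 to 0.0821, as did the fit of all libraries (0.0654). Stroma held 189, 197, 222 and 178 CPM in the liver and 108, 129, 118 and 167 CPM in the peritoneum. The liver libraries all lay above the peritoneal ones. The difference was 0.48 (SE 0.14, adjusted p = 0.0251), and it missed the threshold without liver stroma replicate 3 or without peritoneal stroma replicate 1, 2 or 3 (adjusted p = 0.0552 to 0.0749), or with all libraries of the series in 1 fit (0.52, SE 0.39, adjusted p = 0.377). The fold over tumour cells was 39.2 in the liver and 20.3 in the peritoneum. Whether that stroma-to-tumour difference itself differed between sites was tested by the interaction, which was 0.89 (SE 0.32, adjusted p = 0.0778).

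The balance of the 2 cyclooxygenases is given as a description, with no test. The ratio of Ptgs2 to Ptgs1, both per kilobase, had a median of 11.7 in BMEL WT, 36.5 in RasLOW and 18.6 in RasHIGH cells. In liver and peritoneal tumour cells the medians were 7.37 and 5.04, and in liver and peritoneal stroma 4.86 and 6.37. BMEL WT and RasLOW libraries overlapped with liver tumour cells, at 9.93 to 40.3 in BMEL WT, 7.19 to 45.3 in RasLOW and 4.54 to 11.2 in liver tumour cells, while liver stroma held 4.71 to 5.29.

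Ptgs2os2 (Entrez 102639566), also named lincRNA-Cox2, is a long non-coding RNA gene near Ptgs2, and their RefSeq spans do not overlap. It rose from BMEL WT to RasHIGH cells. The counts were 0, 0 and 1 in BMEL WT, 11, 3 and 3 in RasLOW and 20, 43 and 39 in RasHIGH, or 0.793, 1.92 and 1.87 CPM in the latter. The 3 groups did not overlap. Over the summed counts of 102 and 1, RasHIGH exceeded BMEL WT 116-fold with an exact 95% counting interval of 20.4 to 4633, which covers counting error only. The edgeR test gave an adjusted p of 0.00284 for RasHIGH against BMEL WT and of 0.119 with lane 4 alone. RasHIGH against RasLOW gave a log2 difference of 2.81 (SE 0.66, adjusted p = 0.190, unadjusted 0.00361), which DESeq2 called.

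Ptgs2os2 stayed a low-count gene in tumours. Liver tumour cells held 0.644, 0.704, 0.757 and 0.354 CPM and peritoneal tumour cells 0.350, 0.311, 0.254 and 0.189 CPM. All 4 liver libraries lay just above the peritoneal ones, with a log2 difference of 1.20 (SE 0.38, adjusted p = 0.115, unadjusted 0.00999). Both groups lay below RasHIGH cells, by -1.19 (adjusted p = 0.0388) and -2.39 (adjusted p = 0.00467), although the liver call was lost in turn without each of 6 of the 7 libraries (adjusted p = 0.0565 to 0.138). The stroma held 2.83 ± 0.635 CPM in the liver and 1.76 ± 0.305 CPM in the peritoneum (SD, n = 4), 4.78-fold and 6.76-fold above the tumour cells, a smaller step than that of Ptgs2. Whether the counting used strand is not given in the sources used here, so reads from overlapping transcripts cannot be told apart.

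**Figure D4:**
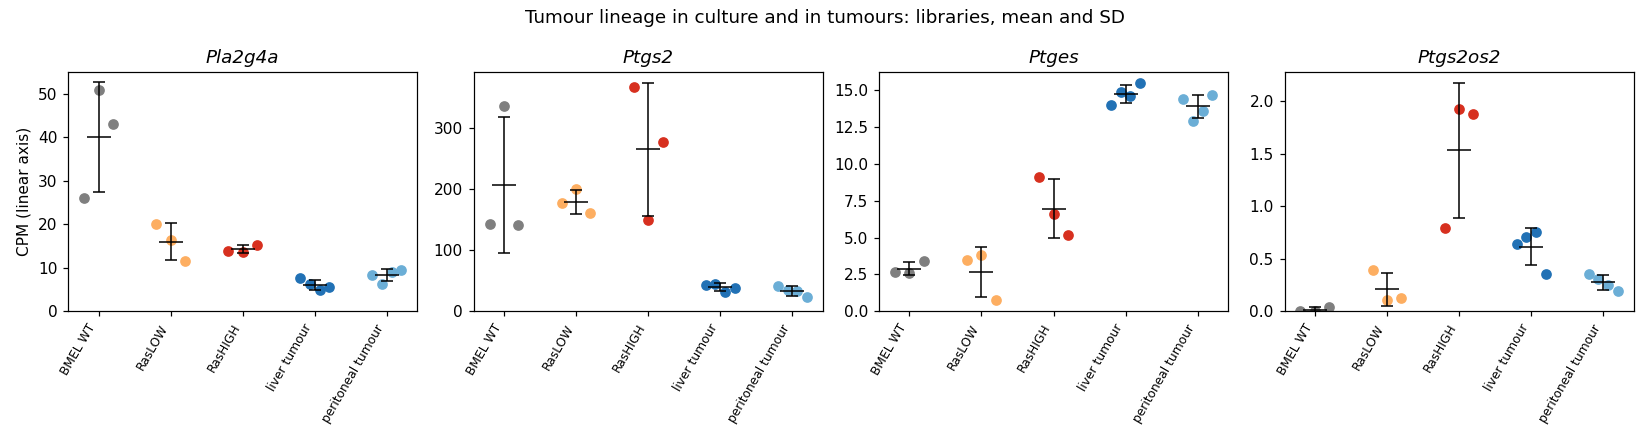
Pla2g4a, Ptgs2, Ptges and Ptgs2os2 in the tumour lineage, from BMEL WT through RasLOW and RasHIGH cells to the tumour cells of liver and peritoneum, in CPM on a linear axis. Points are libraries, and the bars show the mean and SD. Pla2g4a and Ptgs2 are lowest in the tumour cells, whereas Ptges is highest there, at 13.0 to 15.5 CPM.

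Ptges, the inducible microsomal PGE2 synthase mPGES-1 (Entrez 64292, mm9 chr2:30744991-30785383), followed a pattern of its own. BMEL WT held 2.67, 2.61 and 3.41 CPM, RasLOW 3.51, 3.82 and 0.729 CPM and RasHIGH 9.12, 6.62 and 5.19 CPM. RasHIGH lay above both other groups without overlap. Its log2 difference from BMEL WT was 1.28 (SE 0.28, adjusted p = 0.0167) and within lane 4 it was 1.09 (SE 0.48, adjusted p = 0.370). The call was also lost without BMEL WT replicate 1 (adjusted p = 0.0557) or 2 (adjusted p = 0.0717). Its difference from RasLOW was 1.38 (SE 0.58, adjusted p = 0.509), with RasLOW replicate 3 far below its partners.

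In tumours Ptges rose further, where Ptgs2 and Pla2g4a fell. Liver tumour cells held 14.0, 14.9, 14.6 and 15.5 CPM and peritoneal tumour cells 14.4, 13.0, 13.6 and 14.7 CPM. The 8 values were tight and overlapped between sites, with a difference of 0.13 (SE 0.09, 95% interval -0.05 to 0.32), and all lay above every cultured library. Against RasHIGH cells Ptges was 2.26-fold higher in the liver (log2 difference 1.17, SE 0.21, adjusted p = 0.00198) and 2.06-fold higher in the peritoneum (1.05, SE 0.21, adjusted p = 0.00706).

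The stroma split by site. Liver stroma held 8.90, 7.76, 7.57 and 5.32 CPM of Ptges and peritoneal stroma 27.4, 38.6, 36.4 and 32.1 CPM. The groups were far apart, with a log2 difference of -2.30 (SE 0.17, adjusted p = 1.17e-05), or 4.92-fold more in the peritoneum. The order of the compartments differed between sites. In the liver Ptges was lower in stroma than in tumour cells (-0.92, SE 0.15, adjusted p = 0.000148) and in the peritoneum higher (1.38, SE 0.12, adjusted p = 1.46e-05). In every mouse the liver tumour cells held 157 to 292% of the stroma level and the peritoneal tumour cells 33.5 to 52.6%. The interaction of site and compartment was -2.35 (SE 0.19, adjusted p = 5.48e-06), and Ptges was the only gene of the 10 called there, against 14.3% of 15331 genes (7.50% higher, 6.79% lower). Up to 3 were called when a single library was left out, when 1563 to 2117 genes were called in all. Without the 4 sorted libraries of mouse 1 the interaction was -2.65 (SE 0.19), and with lane as a term it was -2.35 (SE 0.20).

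The cell mixture of the stroma differed between sites along with Ptges. The 8 fibroblast and stellate genes summed to 3818 to 7779 CPM in the liver and 48536 to 71828 CPM in the peritoneum, and the 6 mast cell genes to 17.1 to 24.6 and 321 to 1517 CPM. The 5 leukocyte genes went the other way, with 3324 to 3799 CPM in the liver and 2017 to 2389 CPM in the peritoneum. No gene of these 3 lists was at 0 in all 4 libraries of a stroma group. Lrat, of the fibroblast and stellate list, was at 0 in the peritoneal stroma of mouse 3. The part of these mixtures in the Ptges difference was not tested.

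Ptges2, the constitutive membrane-associated PGE2 synthase mPGES-2 (Entrez 96979, mm9 chr2:32251416-32258259), was the reverse of most genes here. BMEL WT cells held 26.0 ± 1.68 CPM, RasLOW cells 31.1 ± 4.06 CPM and RasHIGH cells 25.1 ± 1.85 CPM (SD, n = 3), with no call among them. In tumour cells it was 14.2 to 19.3 CPM in the liver and 17.4 to 23.1 CPM in the peritoneum, and in stroma 9.77 to 11.3 CPM and 8.66 to 10.5 CPM. Stroma lay below tumour cells without overlap at both sites, by -0.61 in the liver (SE 0.12, adjusted p = 0.000648) and -0.94 in the peritoneum (SE 0.13, adjusted p = 0.000151). The drop from RasHIGH to liver tumour cells was small (-0.46, SE 0.15, adjusted p = 0.0295) and missed the threshold without RasHIGH replicate 2 or 3 or without liver tumour replicate 2, 3 or 4 (adjusted p = 0.0547 to 0.0875).

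Per kilobase, Ptges lay below Ptges2 in every library outside the peritoneal stroma and above it in all 4 libraries there. The median ratio of Ptges to Ptges2 was 0.0571 in BMEL WT, 0.0508 in RasLOW and 0.131 in RasHIGH cells, and 0.447 and 0.356 in liver and peritoneal tumour cells. In liver stroma it was 0.372 and in peritoneal stroma 1.70, with all 4 peritoneal stroma libraries between 1.62 and 2.07.

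Ptgis, the synthase of prostacyclin, a vasodilator that blocks platelet aggregation (Entrez 19223, mm9 chr2:167017305-167066104), was read at high levels in stroma alone among the 7 groups. Cultured cells held 0.0396 to 0.410 CPM, from 1 to 11 counts. Liver tumour cells held 0.115 to 0.814 CPM and peritoneal tumour cells 2.52 CPM in mouse 1 and 0.415 to 0.537 CPM in the others. The outlying value fell in the library with the raised fibroblast genes. Ptgis was called between peritoneal tumour cells and RasHIGH cells at a log2 difference of 3.46 (SE 0.95, adjusted p = 0.0223), and at 2.42 (SE 0.52, adjusted p = 0.0131) without mouse 1. Without RasHIGH replicate 2 or 3 it missed the threshold (adjusted p = 0.0583 and 0.0687), and RasHIGH rested on 1, 3 and 2 counts.

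Stroma held 25.9, 47.3, 78.4 and 31.3 CPM of Ptgis in the liver and 58.0, 88.4, 73.9 and 72.8 CPM in the peritoneum. The sites overlapped through liver mouse 3. Their difference was -0.80 (SE 0.31, adjusted p = 0.0728), and with the mouse as a block it was -0.92 (SE 0.21, adjusted p = 0.0172). In that blocked fit 5 of the 10 genes were called between liver and peritoneal stroma, with Ptger4 as the other addition (0.33, SE 0.10, adjusted p = 0.0462), against 37.1% of all genes. Over tumour cells the stroma was 122-fold higher in the liver (log2 difference 6.94, adjusted p = 1.17e-07, and 7.63 without liver tumour replicate 3) and 82.3-fold higher in the peritoneum (log2 difference 6.36, adjusted p = 1.80e-05, and 7.59 without mouse 1).

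Hpgd, the dehydrogenase that starts the breakdown of PGE2 (Entrez 15446, mm9 chr8:58773349-58799843), was at 0 counts in all 9 cultured libraries, which allows a level of up to 0.144 CPM at the shallowest of them. Tumour cells were near that floor, with 7 to 18 counts in the liver and 0 to 8 in the peritoneum. Stroma held 17.8, 42.0, 21.4 and 12.0 CPM in the liver and 11.4, 6.36, 6.57 and 5.40 CPM in the peritoneum. The group means of 23.3 and 7.44 CPM were at least 162-fold and 51.6-fold above the cultured libraries, taken at their highest floor of 0.144 CPM. All 4 liver libraries lay above the peritoneal ones, though liver mouse 4 and peritoneal mouse 1 nearly met. Hpgd was 2.86-fold higher in the liver stroma (log2 difference 1.52, SE 0.36, adjusted p = 0.0101), opposite in direction to Ptges.

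Endothelial and Kupffer cell genes were highest in the stroma library with the highest Hpgd, but did not follow it library by library. In liver stroma mouse 2, which had the highest Hpgd, the 7 endothelial genes summed to 1235 CPM and the 5 Kupffer genes to 567 CPM, against 548 to 696 CPM and 198 to 286 CPM in the other mice. In peritoneal stroma the sums were 322 to 488 CPM and 4.92 to 31.9 CPM, and Clec4f, a defining Kupffer gene, was at 0 in all 4 libraries. The Kupffer sum of the peritoneum was highest in mouse 4, at 31.9 CPM, which had the lowest Hpgd there. The 8 hepatocyte genes summed to 123, 300, 132 and 59.0 CPM in the liver stroma of mice 1 to 4. In peritoneal stroma they summed to 12.2 to 22.6 CPM. The part of these cell types in the Hpgd difference was not tested. Over tumour cells of the same site Hpgd was 84.9-fold higher in liver stroma (adjusted p = 8.16e-08) and 97.4-fold higher in peritoneal stroma (log2 difference 6.61, adjusted p = 3.82e-05, and 7.86 without mouse 1).

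The PGE2 receptors that raise cyclic AMP, Ptger4 (EP4, Entrez 19219, mm9 chr15:5156661-5194187) and Ptger2 (EP2, Entrez 19217, mm9 chr14:45607870-45623495), were stromal too. Ptger4 stood at 47.3, 50.2, 44.9 and 45.0 CPM in liver stroma and 41.1, 41.2, 26.9 and 30.8 CPM in peritoneal stroma. The liver lay slightly higher without overlap (0.31, SE 0.13, adjusted p = 0.0943). Cultured cells held 0.319 to 1.64 CPM with overlapping groups, and tumour cells 0.302 to 1.40 CPM, apart from 2.80 CPM in the peritoneal tumour cells of mouse 1, the library with raised stromal genes. Stroma exceeded tumour cells 53.6-fold in the liver (adjusted p = 3.69e-10) and 32.8-fold in the peritoneum (log2 difference 5.03, adjusted p = 6.10e-05, and 5.90 without mouse 1).

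Ptger2 had 0 counts in all 9 cultured libraries and 0 to 7 counts in the tumour cell libraries, so that neither level was above 0.226 CPM. In stroma it stood at 5.13, 5.76, 5.76 and 3.77 CPM in the liver and 2.61, 6.36, 5.20 and 4.35 CPM in the peritoneum. The sites overlapped (0.03, SE 0.26). Per kilobase Ptger4 exceeded Ptger2 in each stroma library, with a median ratio of 4.97 in the liver and 3.75 in the peritoneum. In the tumour lineage the 2 PGE2 synthase genes were read well above the floor and Ptger2 at or near it. Protein was not measured.

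The wider eicosanoid pathway was followed with 57 further genes of the table, in lists of phospholipases, synthases, degradation and transport, receptors, and the lipoxygenase and leukotriene arm. In liver stroma against tumour cells 29 of 41 genes tested were higher and 8 lower, and in the peritoneum 29 of 42 were higher and 9 lower. Over all genes tested 39.4% were higher and 38.4% lower in the liver, and 37.1% and 39.5% in the peritoneum. The median log2 differences were 3.21 and 3.45. The 3 largest rises in liver stroma were Cyp4f18, which inactivates leukotriene B4 (8.83, SE 0.35, adjusted p = 5.48e-10), Alox5ap, the partner protein of 5-lipoxygenase (8.60, SE 0.18), and the lipoxygenase Alox15 (8.42, SE 0.31). In the peritoneum they were Cyp4f18 (8.04, SE 0.32, adjusted p = 6.58e-07), the leukotriene B4 receptor Ltb4r1 (7.61, SE 0.76) and Alox15 (7.36, SE 0.91). Without mouse 1 these 3 values were 8.72, 10.45 and 9.65, and 29 of 42 genes were higher and 6 lower. Over all genes that fit called 10843 of 14691, with 5710 higher and 5133 lower. The lower genes were led in the liver by Akr1c18 (-2.16), Ptgfrn (-1.85) and the phospholipase Pla2g6 (-1.40), and in the peritoneum by Ephx2 (-1.98), Pla2g6 (-1.75) and Abcc4, an exporter of prostaglandins (-1.37).

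Between liver and peritoneal stroma 4 of the 44 wider genes tested were higher in the liver and 12 lower, with a median of -0.18, against 14.9% higher and 18.5% lower over all genes. All 5 called receptor genes of 7 tested were lower in the liver, led by the PGF2α receptor Ptgfr at 0.121 ± 0.0662 against 3.14 ± 0.979 CPM (SD, n = 4, log2 difference -4.72, adjusted p = 3.80e-05) and Ptgfrn, which is named as a regulator of that receptor, at 104 ± 12.7 against 259 ± 39.2 CPM (-1.44, adjusted p = 3.86e-05). The carbonyl reductase Cbr2 was also lower (-4.19, adjusted p = 0.00190) but spread widely in the peritoneum, at 53.8 ± 62.6 CPM. Higher in the liver were Alox12 (1.87), Aloxe3 (1.30) and Cyp4f18 (0.72). In tumour cells 1 of 26 wider genes differed between the sites, Cbr2 again (-4.93, adjusted p = 0.0341), against 3.20% of all genes. Its peritoneal level was 6.41 CPM in mouse 1, the library with raised fibroblast genes, and 0.452, 0.800 and 0.491 CPM in the others. Without mouse 1 the difference was -3.19 (SE 0.57, adjusted p = 0.0127). In that fit 1 of the 26 wider genes was called higher in the liver and 1 lower, against 1042 of 13073 genes called either way.

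In culture 2 of 23 wider genes were higher and 5 lower in RasHIGH than in BMEL WT cells, against 10.9% and 11.7% of all genes. Pla2g7, a phospholipase that hydrolyses platelet-activating factor, went up from 3.29 ± 2.06 to 40.3 ± 9.87 CPM (SD, n = 3, log2 difference 3.61, adjusted p = 0.00254), and Akr1c18 rose from 0.0494 ± 0.0856 to 2.20 ± 2.36 CPM (adjusted p = 0.0225). The carbonyl reductase Cbr1 (-5.21), the leukotriene receptor Cysltr1 (-3.78) and Pla2g16 (-3.46) fell most. In RasLOW cells 0 of 22 were higher and 3 lower than in BMEL WT, namely Cysltr1 (-3.95), Cbr1 (-2.44) and the transporter Slco3a1 (-1.73), against 1.92% and 4.05% of all genes. Between RasHIGH and RasLOW cells edgeR called 0 of 22, with 6 at an unadjusted p under 0.05. Over all 11962 genes tested 0.0752% were called, and 1170 had an unadjusted p under 0.05.

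Against RasHIGH cells, 4 of 25 wider genes were higher and 8 lower in liver tumour cells, and 7 of 26 higher and 4 lower in peritoneal tumour cells, when 45.1% and 37.9% of all genes were called. Without mouse 1 the counts were 2 higher and 6 lower of 22 and 3 higher and 4 lower of 24. Over all genes these fits called 4925 of 12698 (2612 higher, 2313 lower) and 3934 of 12497 (2206 higher, 1728 lower). Abcc4 fell in both (-1.53 and -1.18). In the liver Hpgds (-1.96) and the prostaglandin transporter Slco2a1 (-0.85, and -0.82 with adjusted p = 0.0615 without mouse 1) also fell, and Pla2g7 (0.80) and Ptgfrn (0.53) rose. In the peritoneum Ptges3 (-0.64, and -0.66 with adjusted p = 0.0627 without mouse 1) and Slco3a1 (-0.57) fell, while Mgll (6.75), the thromboxane synthase Tbxas1 (5.12) and Cbr2 (5.07) rose from 0.0132, 0.0281 and 0.0629 CPM. All 3 were highest in mouse 1, at 6.34, 2.58 and 6.41 CPM, against 0.189 to 0.622 CPM of Mgll, 0.390 to 0.944 CPM of Tbxas1 and 0.452 to 0.800 CPM of Cbr2 in the other mice. Without mouse 1 Tbxas1 was at 4.27 (SE 0.76, adjusted p = 0.00674) and Cbr2 at 3.30 (SE 0.78, adjusted p = 0.0184), while Mgll did not pass the filter on counts.

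Of the wider genes with a mean of at least 50 CPM in some group, Slco2a1 and Abcc4 were most abundant in BMEL WT, at 331 and 416 CPM, and lowest in the peritoneal stroma, at 77.1 and 38.6 CPM. Ptges3, the cytosolic PGE2 synthase and chaperone partner, was at 340 CPM in BMEL WT and 121 CPM in the stroma of the peritoneum. Pla2g7 was at 570 CPM in liver stroma, Pla2g15 at 114 and Alox5 at 59.0 CPM in peritoneal stroma, and Tbxas1 at 99.0 CPM in liver stroma. Alox5ap, Alox15 and Cysltr1 were at 165, 74.7 and 70.9 CPM in liver stroma. The group means of Ptgr2 ran from 32.6 to 78.2 CPM, those of Zadh2 from 33.2 to 120 CPM, and those of the leukotriene A4 hydrolase Lta4h from 60.4 to 119 CPM.

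The genes whose log2(CPM + 1) followed 4 of the members most closely over the 25 libraries were named by Pearson correlation among 13157 genes, as a description. For Ptgs1 they were Sash1 (0.984), Tifa (0.978) and Agap2 (0.977), and for Ptgs2 Clic4 (0.973), Inpp5b (0.968) and Fam234b (0.964). For Ptges they were Loxl3 (0.961), Olfml2b (0.935) and Vasn (0.917), all highest in peritoneal stroma. For Ptgis they were the cytokine Il6 (0.995), Tmem119 (0.994) and Il1rl2 (0.994). The libraries share compartments, and any gene that separates stroma from tumour cells scores high, so the values rank patterns and nothing more.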

How the data were processed

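RNA was measured by poly(A) RNA-seq (NuGEN Universal Plus mRNAseq) in 25 libraries. The authors mapped the reads and deposited raw counts per gene, which are the values used here. Their methods name mm9 and TopHat2, whereas the submitters' processing notes list Bowtie 0.12.2, FastQC, mm8 and mm10, so the build behind the counts is uncertain. The annotation, the counter and its strand setting are not given in the sources used here. Gene positions and exon lengths were taken from an mm9 annotation, and promoters from RefSeq (GRCm38.p6).

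Groups came from the sample labels. The members and lists were chosen with earlier results of these data known. Each comparison was fitted between its 2 groups with edgeR 4.0.16 in R 4.3.3 (TMM factors, filterByExpr with a minimum count of 10, quasi-likelihood test). P-values were adjusted by Benjamini-Hochberg across every gene that passed the filter, and 0.05 was the threshold. SEs are the log2 difference divided by the root of F. Intervals use the normal quantile, so with few libraries they are narrower than the F test implies. The interaction was fitted on the 16 sorted libraries. The code was tested on simulated data. Alternatives were DESeq2 1.42.0, RLE factors, no filter, the study's fold and p thresholds, 1 fit of all libraries, the lane, the replicate block, each library left out, library totals and leaving out mouse 1. Total counts were 20818989 to 51241336, and intervals and floors of 3 counts cover counting error only. The methods call the replicates independent biological samples. Same-numbered sorted libraries come from 1 mouse per the labels (mean correlation of deviations -0.0476 between tumours and 0.172 between stromas). The labels do not say whether cultured numbers pair libraries.

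All 10 members are named. Of the wider lists, up to 3 called genes each way per comparison are named (largest fold, at least 100 counts over both groups, no overlap), as is any gene with a group mean of at least 50 CPM. The low-lying marker examples in the plot of percentages were chosen after their values were seen.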

Additional observations from a re-analysis of the deposited data

Results flagged for a closer look

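In groups of 4 libraries, the highest or lowest value was compared with its neighbour as a share of the group's range, by Dixon's 95% critical value for 4 samples. Of 40 sets of values of the prostaglandin genes 3 passed it, and chance alone flags about 1 in 20 groups. Ptgs2 in liver stroma had a share of 0.866, from 1123 CPM in mouse 3 against 989 to 1007 CPM in the others. Ptgis in peritoneal tumour cells had a share of 0.942, from 2.52 CPM (79 counts) in mouse 1 against 0.415 to 0.537 CPM, in the library whose fibroblast genes summed to 1491 CPM. Hpgd in liver tumour cells had a share of 0.872, from 0.507 CPM (18 counts) in mouse 2 against 0.184 to 0.225 CPM. Ptges is listed because its liver-to-peritoneum difference itself differed between stroma and tumour cells, by -2.35 on the log2 scale (SE 0.19, edgeR adjusted p = 5.48e-06).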

How the results depend on the processing

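Of 159 recomputed counts of called members 138 stayed within 1.5 times the reported count, and of 1349 recomputed log2 differences 1240 kept their direction and side of the threshold, 46 lost a call, 17 gained one and 46 changed sign. Each sign change concerned a difference that edgeR had not called. Brackets in this paragraph hold the number of all genes called, with the number tested where 1 fit is meant. Between RasLOW and BMEL WT 1 member was called (734 of 12307). Under the study's thresholds it was 0 (542 of 12307), and with the replicate block 0 (294 of 12678). With all libraries in 1 fit it was 2 (2440 of 15757), and with a library left out 0 to 2 (148 to 2340). The lane 4 fits have 1 BMEL WT library, so their counts are not given. Between RasHIGH and BMEL WT the count was 1 under the study's thresholds (1190 of 12331). It was 2 to 3 with a library left out (1517 to 3896). Between RasHIGH and RasLOW it was 1 under the study's thresholds (253 of 11962), 1 with DESeq2 (414 of 13664) and 2 in 1 fit (917 of 15757). With any library left out it was 0. Those fits called 0 to 16 genes in all, so this 0 says little about the members. Between tumour cells of the 2 sites it was 1 under the study's thresholds (460 of 13074). It was 0 with any library left out (41 to 884). Between liver and peritoneal stroma it was 5 with library totals (5743 of 14755) and 5 with the mouse as a block (5733 of 15468). It was 2 to 4 with a library left out (3976 to 4872). The interaction called 2 with library totals (2779 of 15331) and 1 to 3 with a library left out (1563 to 2117). For stroma against tumour cells, leaving a library out gave 10 in the liver (11099 to 11353) and 10 in the peritoneum (10691 to 11070). For tumour cells against RasHIGH it gave 4 to 7 in the liver (4510 to 8100) and 4 to 6 in the peritoneum (3154 to 7050). Library totals and leaving out mouse 1 were chosen after seeing the data. The cause of these moves was not tested.

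Same-numbered cultured libraries had mean correlations of deviations of -0.116, 0.0585 and -0.298. Liver and peritoneal tumour cells, from the same mice by their labels, gave -0.0476. A low value therefore cannot show whether the cultured numbers pair libraries. Beyond the counts above the block changed no other call count by over 1.5 times. Sign changes with the block were Ptgs1 -0.59 (RasLOW against BMEL WT), Ptger4 -0.03 (RasHIGH against RasLOW) and Ptger4 0.16 (tumour sites). Within lane 4 they were Ptgs2 0.39 and Ptger4 0.24 (RasLOW) and Ptger4 0.39 (RasHIGH), and in 1 fit Ptges2 0.0025 (RasHIGH against BMEL WT). Without mouse 1 they were Ptgis 0.16 and Ptger4 0.83 between tumour sites, and Ptgis -0.81 and Ptger4 -0.35 in the interaction. Between stromas, Pla2g4a and Ptges2 near 0 became -0.00059 and -0.0012 (DESeq2), -0.01 and -0.01 (no filter), and Pla2g4a -0.00056 (RLE).
With a library left out, the log2 differences that changed sign ranged as follows. The ranges for RasLOW against BMEL WT were Ptgs2 -0.41 to 0.34, Ptgs1 -1.44 to 0.44 and Ptges -0.37 to 0.36. The range for RasHIGH against BMEL WT was Ptges2 -0.06 to 0.04. The ranges for RasHIGH against RasLOW were Pla2g4a -0.35 to 0.08, Ptgs1 -0.01 to 1.85 and Ptger4 -0.69 to 0.47. The range between tumour sites was Ptger4 -0.60 to 0.65. The ranges between stromas were Ptger2 -0.20 to 0.19, Pla2g4a -0.08 to 0.05 and Ptges2 -0.08 to 0.04. The ranges in the interaction were Hpgd -1.78 to 0.17, Ptgis -0.60 to 1.11, Ptger4 -0.28 to 0.93 and Ptgs2 -0.35 to 0.02. Without RasLOW replicate 2 the Ptgs1 difference from BMEL WT was called (adjusted p = 0.0193).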
